A study of Mus musculus with 4 samples.

Results

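Haem, the iron-porphyrin that haemoglobin and the respiratory cytochromes carry, is built by a chain of enzymes that starts and ends in the mitochondrion. The 9 genes described here are Alas1 and Alas2, which encode the alternative first enzymes, the later enzyme genes Alad, Uros, Urod, Cpox, Ppox and Fech, and Slc25a38, which encodes a mitochondrial glycine carrier. They were found by symbol, through the Ensembl identifier, among the 53715 genes of the deposited count table, and 9 of 9 were present once. The set was chosen by function around Alas2. Alas2 itself was selected on its level, already known from these libraries to be lower under one label, so its difference is a description and is not tested.

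The libraries came from cells labelled primordial germ cells, the embryonic precursors of eggs and sperm, of C57BL/6 mouse embryos at E12.5. There were 2 libraries from wild-type embryos (WT) and 2 from embryos with a knockout of Rif1 (Rif1_KO), a gene for a chromatin protein of replication timing and DNA break repair. All 4 were enriched with magnetic beads and made from 1000 cells each, with cDNA from a modified Smart-seq2 method and libraries cut by Tn5. The labels do not give the allele, the deleted exons, the sex or the number of embryos, so p-values speak only of how these libraries vary, which could be technical variation.

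In red cell precursors, Alas2 makes the first and rate-setting step, and its messenger RNA is held back until iron is present. Other cells use Alas1, which haem itself shuts down. The pathway then leaves the mitochondrion for the cytosol, where Alad, Uros and Urod act, and returns for the last steps by Cpox, Ppox and Fech, the enzyme that inserts iron. Mouse embryos at this stage hold large numbers of primitive red cells that make haemoglobin.

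The labels were checked before any comparison. Totals ran from 11724630 to 14421298 counts per library. Rif1 stood at 43.7 and 4.73 CPM under WT (replicate 1, then 2, in every pair of values here) and at 86.2 and 63.9 CPM under Rif1_KO. Its count was thus not lower under Rif1_KO. As the deleted exons are not given, this count can neither bear out nor refute the labels. Every direction below is one between libraries so labelled. CPM is the count scaled by library size after TMM normalization of the tested genes. Germ cell markers were low for the labelled cell type: the 14 listed genes summed to 57.4 and 473 CPM under WT and to 38.4 and 40.0 CPM under Rif1_KO. The pluripotency gene Pou5f1 did not exceed 1.2 CPM in any library, and Sox2 was at 0 in WT replicate 1 and Rif1_KO replicate 2. Some other germ cell genes were highest in WT replicate 2: Dazl had 13.0 and 196 CPM under WT against 2.03 and 4.08 CPM, Dppa3 10.2 and 165 against 11.8 and 5.77 CPM, and Ddx4 0.645 and 59.2 against 1.05 and 0.530 CPM. Others in the list did not share that pattern. Prdm14 had 19.9 and 18.4 CPM under WT against 0.452 and 0.106 CPM. Prdm1 had 0.276 and 0.323 against 0.904 and 17.7 CPM, and Kit 0.829 and 7.42 against 11.5 and 2.86 CPM. These markers were named after their values were seen. Haemoglobin genes summed to 138300 and 112400 CPM against 9866 and 4242 CPM. A further 17 erythroid markers summed to 415 and 776 CPM against 46.6 and 38.6 CPM, while 10 stromal markers summed to 543.5 and 402 CPM against 1643 and 1337 CPM. Supporting cell markers (8 genes) summed to 561 and 545 against 468 and 468 CPM, endothelial markers (6) to 204 and 108 against 72.3 and 137 CPM, and leukocyte markers (6) to 2.21 and 19.1 against 5.95 and 3.60 CPM. In such bulk libraries fewer red cells and less RNA per red cell cannot be told apart, and the part of these cell types in the values of the haem genes was not tested.

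The sequences before the starts of Alas2, Alas1 and Uros are shown first, because the first pair are compared throughout and Uros had the opposite direction. They are RefSeq promoters on build GRCm38.p6, which were used for 8 of the 9 genes, all but Fech. The 250 bases before each start were searched on both strands for GATA sites (AGATAA and its variant AGATAG, besides TGATAA and its variant TGATAG), for the KLF site CACCC and for GCATGCGC, the core of the site of the respiratory regulator NRF1. Capitals mark these matches, read 5′ to 3′ along the gene. The first Alas2 stretch lies at chrX:150547167-150547374 (+ strand) and ends 43 bases before the RefSeq start, the second at chrX:150547370-150547399. The Alas1 stretch lies at chr9:106247906-106247935 (- strand), and those of the inner Uros start at chr7:133702617-133702750 and chr7:133702551-133702580 (- strand).
Alas2, GATA match: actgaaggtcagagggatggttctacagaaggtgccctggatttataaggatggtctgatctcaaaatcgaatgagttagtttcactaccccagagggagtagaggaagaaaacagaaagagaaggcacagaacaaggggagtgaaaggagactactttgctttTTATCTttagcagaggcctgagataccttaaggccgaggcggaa
Alas2, CACCC matches: cggaaggGGGTGGGGTGGGGTGggcggggc
Alas1, NRF1 core and CACCC: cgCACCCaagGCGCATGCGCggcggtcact
Uros, inner start, first GATA match: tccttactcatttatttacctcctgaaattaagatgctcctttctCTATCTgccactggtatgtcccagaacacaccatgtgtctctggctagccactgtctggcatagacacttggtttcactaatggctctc
Uros, inner start, second GATA match: tctccctcagccTTATCAgtgacagagggc

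Alas2 had 1 GATA match, 86 to 81 bases before its start, and 3 CACCC matches in a row, 40 to 26 bases before it. Alas1 had no GATA match at either of its 2 RefSeq starts but 1 CACCC match at each. Its second start carried the NRF1 core on both strands in overlap. Alad, at its second start, and Slc25a38 also had 1 CACCC match each. Uros had 2 GATA matches before its inner start and 0 before its outer one. Cpox had 2 GATA matches, which overlap at 86 bases before its start, and 4 CACCC matches, while Urod and Ppox had 0 of any motif. The sequence just after the Cpox start matched no GENCODE transcript of its gene. The same held for the outer Uros start and for 1 of the 2 Alad starts. Among all 32851 promoters in the table, 26.5% held a GATA match, 52.0% a CACCC match and 2.26% the NRF1 core, so the first pair are common. Distances are from the RefSeq start, and part of this sequence is exonic in the GENCODE annotation. Of the 30 bases shown with the Alas2 CACCC matches 25 are annotated as UTR of Alas2, as are all 30 of the Alas1 stretch and all 30 of the second Uros stretch for their genes; the first stretches of Alas2 and Uros hold 0 UTR bases. A match describes letters only and says nothing of binding in these cells.

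Both genes for the first step had lower values under Rif1_KO. Alas2 (ENSMUSG00000025270.13, chromosome X, 150547375 to 150570638, mm10) had 263 and 245.5 CPM in the WT libraries and 12.9 and 20.7 CPM in the Rif1_KO libraries. The groups lie far apart, with replicates within 1.61-fold of each other. The means were 254 ± 12.4 and 16.8 ± 5.53 CPM (SD, n = 2 each), a ratio of 15.1. Alas1 (ENSMUSG00000032786.16, chromosome 9, 106233455 to 106248654) had 70.1 and 64.5 CPM against 7.23 and 13.0 CPM. Its groups do not overlap either, and the WT libraries were 6.64 times higher on average (67.3 ± 3.97 against 10.1 ± 4.10 CPM, SD, n = 2 each). The housekeeping gene and the erythroid gene thus had the same direction in these libraries. For Alas1 the log2 fold change, Rif1_KO minus WT, was -2.73 (SE 0.76), with an adjusted p of 0.571 by edgeR's quasi-likelihood test over all 15466 tested genes, and DESeq2 gave an adjusted p of 0.0381.

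**Figure D1:**
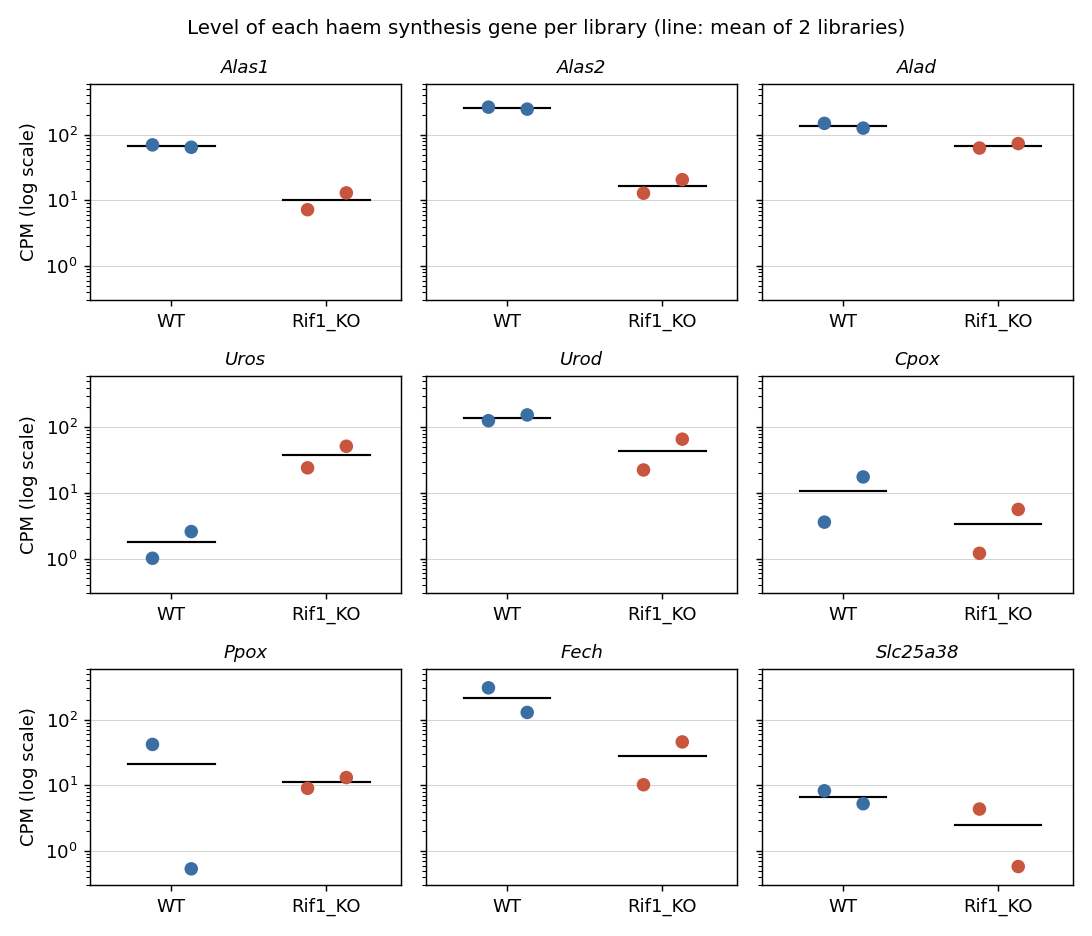
Level of each of the 9 genes in CPM on a log axis, with 1 point per library (WT in blue, Rif1_KO in red) and a line at the mean of each pair. Alas1, Alas2, Alad, Urod, Fech and Slc25a38 sit lower in both Rif1_KO libraries, Uros sits higher, and Cpox and Ppox overlap.

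The ratio of the 2 first-step genes inside a library does not depend on library scaling. There were 3.75 and 3.81 Alas2 counts for each Alas1 count in the WT libraries, and 1.78 and 1.59 in the Rif1_KO libraries. Replicates of a label lay close together, and the labels did not overlap. Because Alas2 was selected on its lower level, a lower ratio may follow in part from that choice and is only described. As a share of the pair's counts, Alas2 made up 79.0% in WT replicate 1 (exact Clopper-Pearson 95% interval 77.6 to 80.3) and 79.2% in WT replicate 2 (77.7 to 80.7). In the Rif1_KO libraries it made up 64.04% (58.0 to 69.8) and 61.4% (57.5 to 65.2). The intervals treat each count as independent and leave out variation between libraries. Because PCR copies were not marked by molecular identifiers, the intervals may be too narrow even for counting error. Per kilobase of exon, the ratio of levels was 9.64 and 9.78 against 4.58 and 4.08, and with the longest coding transcript as length it was 6.26 and 6.35 against 2.97 and 2.65. Alas2 thus outnumbered Alas1 in 4 of 4 libraries on each of these scales. The log2 ratio differed by -1.17 between the labels, and with 2 libraries a group an exact two-sided permutation test cannot go below 0.333, so it was not tested.

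Exons of Alas2 share 311 bases with Apex2, a DNA repair nuclease gene on the other strand, and the deposited counts give a read in shared bases to both genes. Apex2 had 817 and 821 counts under WT and 40 and 354 under Rif1_KO, beside 2856, 2284, 171 and 391 for Alas2. At most that many Alas2 counts can be shared reads, so at least 2039 and 1463 counts under WT and 131 and 37 under Rif1_KO were not also counted for Apex2. A further 61 bases are shared with Mir3620, which had 60, 22, 0 and 5 counts, and Alas1 shares 465 exon bases with 4930500F10Rik, which had 0, 0, 5 and 0. The ratio to Alas1 from these lower limits was 2.68 and 2.44 under WT, and 1.365 and 0.150 under Rif1_KO. In Rif1_KO replicate 2, the share of Alas2 counts that is its own is therefore the least certain, and there the lower limit of Alas2 lies below Alas1.

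Alas2 was next set beside the globins, whose haem it serves. There were 1.90 and 2.18 Alas2 counts for every 1000 haemoglobin counts in the WT libraries, and 1.31 and 4.88 in the Rif1_KO libraries. Rif1_KO replicate 1 lies below both WT libraries and replicate 2 above them, so the labels overlap. Fech, at the other end of the pathway, had 2.21 and 1.15 counts per 1000 haemoglobin counts against 1.04 and 10.8, and for Alas1 the same ratio was 0.507 and 0.574 against 0.733 and 3.07. The difference in log2 Alas2 per haemoglobin count was 0.31 over all libraries and -0.64 without Rif1_KO replicate 2. Haemoglobin itself took 11.8% and 8.92% of all counts under WT, against 1.09% and 0.555% under Rif1_KO.

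**Figure D2:**
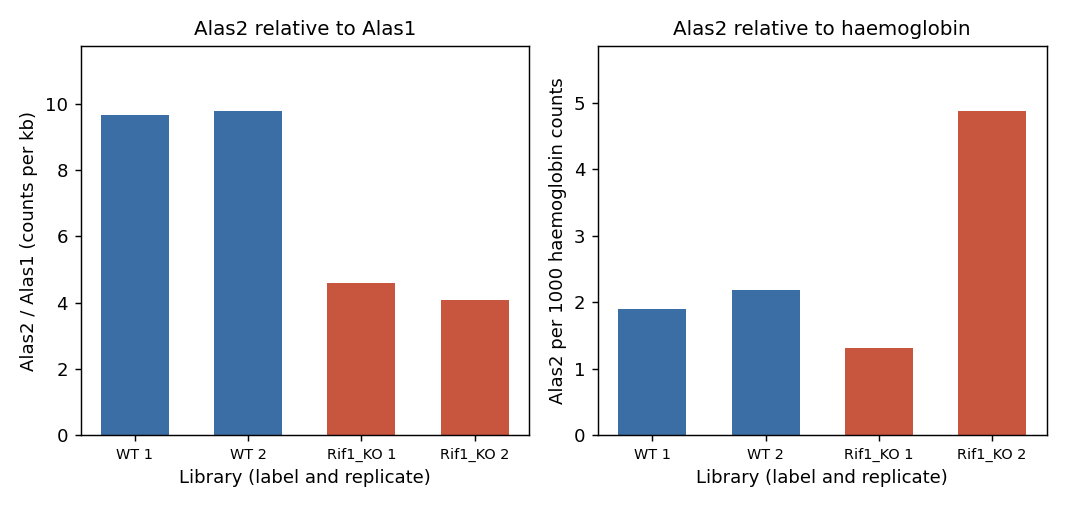
Left, counts per kilobase of Alas2 divided by those of Alas1 in each library; right, Alas2 counts per 1000 haemoglobin counts. The ratio to Alas1 was 9.64 and 9.78 under WT and 4.58 and 4.08 under Rif1_KO, whereas the Rif1_KO libraries fall on either side of the WT libraries in the ratio to haemoglobin.

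The genes of the cytosolic steps did not share a direction. Alad (ENSMUSG00000028393.10, chromosome 4, 62509169 to 62519918), which joins 2 aminolevulinate molecules into a pyrrole, had 149 and 126 CPM under WT and 62.8 and 73.4 CPM under Rif1_KO. The groups do not overlap, but the ratio of the means was only 2.02, the smallest among the genes without overlap, and the log2 fold change was -1.01 (SE 0.42; edgeR adjusted p = 0.584). Urod (ENSMUSG00000028684.14, chromosome 4, 116989965 to 116994413), which trims the side chains of the ring, had 126 and 154 CPM against 22.4 and 65.8 CPM. The Rif1_KO libraries differed from each other by 2.94-fold, nearly as much as the means of the labels, which differed by 3.17-fold (log2 fold change -1.67, SE 0.61; edgeR adjusted p = 0.575).

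Uros had the opposite direction. This gene (ENSMUSG00000030979.13, chromosome 7, 133686243 to 133710072) encodes the synthase that closes the porphyrin ring. It had 1.01 and 2.58 CPM in the WT libraries, from 11 and 24 counts, and 24.1 and 51.4 CPM in the Rif1_KO libraries, from 320 and 970 counts. All values under Rif1_KO exceed all values under WT, and the means of 37.7 ± 19.3 and 1.80 ± 1.11 CPM (SD, n = 2 each) differ by 21.0-fold. The log2 fold change was 4.39 (SE 1.24), with an adjusted p of 0.571 by edgeR and 0.00262 by DESeq2. Uros shares 0 exon bases with other genes of the table. The sequences above show that Uros has an inner start with GATA matches besides its outer start, and 1 count per gene cannot tell which start was used.

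The last mitochondrial steps were uneven. Fech (ENSMUSG00000024588.8, chromosome 18, 64456550 to 64489066) had 306 and 129 CPM under WT and 10.25 and 46.0 CPM under Rif1_KO. The groups do not overlap, though each pair differs by more than 2-fold inside (2.37 and 4.49), and the WT mean was 7.75 times higher (log2 fold change -2.95, SE 0.81; adjusted p of 0.571 by edgeR and 0.0741 by DESeq2). Cpox (ENSMUSG00000022742.5, chromosome 16, 58670208 to 58680391), which oxidises coproporphyrinogen, had 3.59 and 17.5 CPM against 1.21 and 5.61 CPM. Its replicates differ by 4.88-fold and 4.66-fold, more than the 3.10-fold between the means, and the labels overlap (log2 fold change -1.62, SE 1.53; edgeR adjusted p = 0.824).

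Ppox and Slc25a38 had low or uneven counts. Ppox (ENSMUSG00000062729.11, chromosome 1, 171275990 to 171281186), the enzyme before Fech, had 42.1 and 0.538 CPM under WT, from 457 and 5 counts, against 9.04 and 13.2 CPM under Rif1_KO. The WT libraries lie on either side of both Rif1_KO libraries. Ppox shares 791 exon bases with B4galt3 on the other strand, which had 352 and 10 counts under WT and 62 and 131 under Rif1_KO, so part of its counts cannot be assigned. Its log2 fold change of -0.94 (SE 1.73; edgeR adjusted p = 0.929) became 4.35 without WT replicate 1. Slc25a38 (ENSMUSG00000032519.11, chromosome 9, 120110374 to 120124504) had 8.29 and 5.27 CPM against 4.37 and 0.583 CPM, the last from 11 counts. Its groups do not overlap, but the Rif1_KO pair differs by 7.50-fold inside, more than the 2.74-fold between the means (log2 fold change -1.45, SE 1.46; edgeR adjusted p = 0.837).

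All 9 genes passed the filter on low counts. Calls are given for the 8 genes other than Alas2. Of these, 0 passed edgeR's test at an adjusted p under 0.05, as against 2 of all 15466 tested genes (0.0129%). At an unadjusted p under 0.05, 4 of them were lower (Alas1, Alad, Urod and Fech; all genes 3.05%) and Uros was higher (all genes 5.35%). In 5 of the 8 both Rif1_KO values lay below both WT values (all genes 18.4%), and in Uros alone both lay above (all genes 21.0%). DESeq2 called Alas1 lower (all genes 1.24%) and Uros higher (all genes 2.13%). The genes around Alas2 were picked with their direction known, so nothing is read from these counts. The median log2 fold change was -1.54 for these 8 genes and -0.11 for all tested genes. Calls moved with single libraries: 871 genes were called without WT replicate 1, among them Alas1 and Uros, and 545 without WT replicate 2, among them those and Fech. Without Rif1_KO replicate 1 or 2, 5 and 6 genes were called and none of the 8. Those fits leave a label with 1 library, whose variation is assumed equal to that of the other label.

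The make-up of the pathway's transcripts was taken as each gene's share of the counts of all 9. Scaled by exon length, Alas2 held 29.7% and 34.96% of the 9 genes' counts in the WT libraries and was first in both. In the Rif1_KO libraries it held 8.52% and 7.80% and ranked 4 and 5. Its lower share, too, is drawn in part from the level on which Alas2 was selected. Alad was first in both Rif1_KO libraries, with 53.3% and 35.5%, against 21.6% and 23.1% under WT. Uros held 0.0769% and 0.247% under WT, and 10.7% and 13.0% under Rif1_KO. In level per kilobase, Alas2 and Fech were neighbours in WT replicate 1 (109.5 and 106 CPM per kb) but not in WT replicate 2 (102 and 44.5 CPM per kb), so their order there is within the spread of Fech. Alas1 ranked 5 in both WT libraries, at 11.4 and 10.5 CPM per kb. By exon length Fech ranked 2 and 4 under WT, and by the longest coding transcript it ranked 4 in both. That transcript has 6571 bases, more than the 2901 exon bases of Fech in which reads were counted. The second scale therefore sets Fech too low. On that second scale Alas2 again came first in both WT libraries and Alad in both Rif1_KO libraries.

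**Figure D3:**
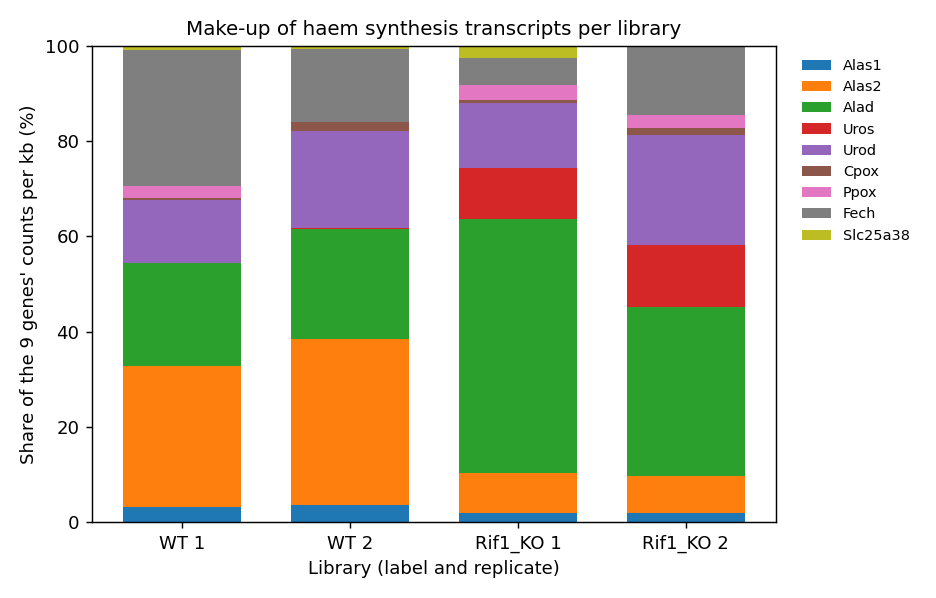
Share of the 9 genes' counts per kilobase of exon (%) held by each gene, with 1 bar per library adding to 100%. The orange Alas2 segment is 29.7% and 34.96% under WT and 8.52% and 7.80% under Rif1_KO, and the red Uros segment is 0.0769% and 0.247% under WT and 10.7% and 13.0% under Rif1_KO.

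Genes that bring iron to the pathway were listed apart. Of 22 such genes 20 were tested, and 0 passed edgeR's test over all genes; at an unadjusted p under 0.05, 5 were lower (all genes 3.05%) and 1 was higher (all genes 5.35%). DESeq2 called Slc25a37 lower (all genes 1.24%) and Slc40a1 higher (all genes 2.13%). The median log2 fold change was -0.92. Slc25a37, the mitochondrial iron importer of red cell precursors, had 130.2 and 234.5 CPM under WT and 12.6 and 20.9 CPM under Rif1_KO (log2 fold change -3.44; adjusted p of 0.407 by edgeR and 0.00473 by DESeq2). Tfrc, the transferrin receptor, had 53.8 and 207 CPM against 20.8 and 11.97 CPM. The ferritin genes Fth1 and Ftl1 had lower values too, at 2499 and 1688 against 894 and 850 CPM for Fth1 and at 4855 and 3600 against 1857 and 2127 CPM for Ftl1; both have many close copies in the genome, which makes their counts uncertain. Abcb10, which partners Slc25a37, had 13.8 and 2.90 CPM against 18.2 and 19.4 CPM, and so did not share its direction. Chosen after their values were seen, the other genes among those counted are Glrx5, an iron-sulphur cluster factor (154 and 157 against 58.6 and 29.5 CPM), and the iron exporter Slc40a1 (0.369 and 1.40 against 34.1 and 6.73 CPM).

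Among genes of haem breakdown, transport and precursor supply, 0 passed edgeR's test. Hmox1, the inducible haem oxygenase, had 27.9 and 45.3 CPM under WT and 5.12 and 11.2 CPM under Rif1_KO, without overlap. Its constitutive partner Hmox2 had 14.0 and 55.0 CPM against 46.9 and 72.2 CPM, with overlap. All 4 breakdown genes were tested and none passed edgeR's test or DESeq2, or had an unadjusted p under 0.05. Of 14 genes for porphyrin and haem transport and control 12 were tested, with 0 past either adjusted threshold. At an unadjusted p under 0.05, 1 was lower (all genes 3.05%). That gene, Slc25a39, a mitochondrial glutathione carrier, had 46.7 and 273 CPM against 34.1 and 43.1 CPM. Of 9 genes that supply glycine or succinyl-CoA, 0 passed either adjusted threshold. In that list Suclg1, a subunit of succinyl-CoA synthetase, was lower at an unadjusted p under 0.05 (all genes 3.05%), at 146 and 211 against 66.7 and 93.0 CPM. The median log2 fold change of this list was 0.34. Among 5 regulators of Alas1, 0 passed by either tool or at an unadjusted p under 0.05. Foxo1 had 8.48 and 42.6 CPM against 1.28 and 3.55 CPM, without overlap, and Nrf1 had 33.7 and 6.45 CPM against 2.56 and 11.71 CPM. Ppargc1a had 0.461 and 1.40 CPM against 10.17 and 0.159 CPM, with overlap.

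**Figure D4:**
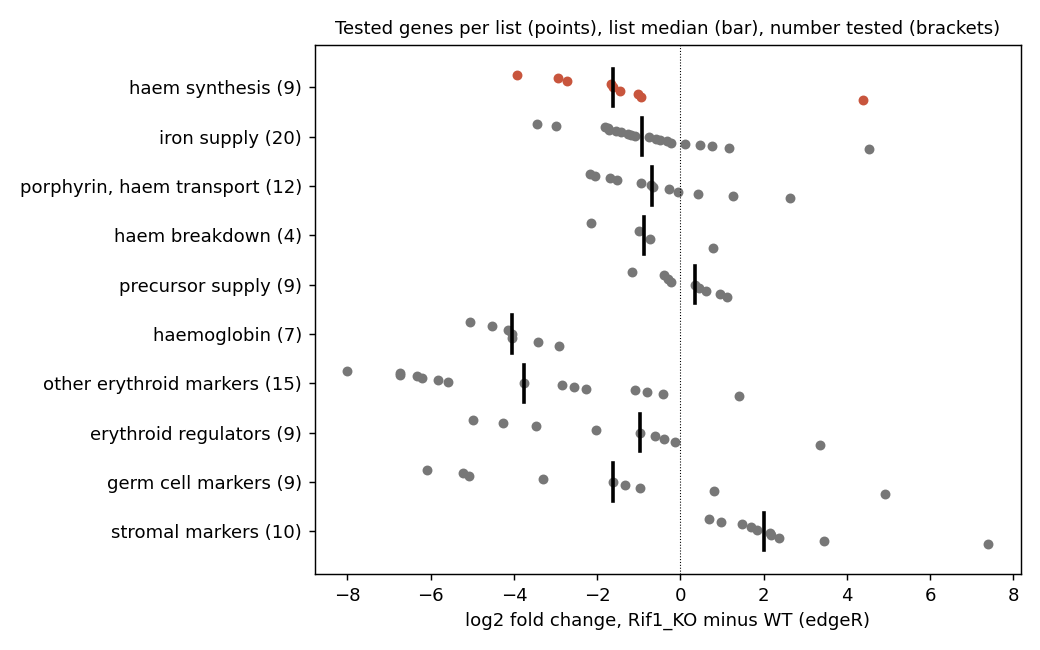
Fitted log2 fold change (edgeR, Rif1_KO minus WT) of each tested gene by list, with a bar at the list's median. The 9 haem synthesis genes (red points) have a median of -1.62 with Uros alone above 0. That median includes Alas2, which was selected on its level, and is -1.54 without it. The median was -4.05 for haemoglobin genes and 2.00 for stromal markers.

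Of the lists examined, the haemoglobin genes and the other erythroid markers had the most negative medians, while the list of 11 erythroid regulators, 9 of them tested, had a median of -0.97. For the 7 haemoglobin genes the median log2 difference was -4.05, close to the -3.92 of Alas2, and both genes called by edgeR, Hba-a1 and Hba-a2, are among them. These share near-identical coding sequences, so their split is uncertain. Of the other erythroid markers 15 were tested, with a median of -3.77; 0 passed edgeR's test, 7 were lower at an unadjusted p under 0.05 (all genes 3.05%) and 7 were called lower by DESeq2 (all genes 1.24%). The blood group gene Rhd had 40.2 and 126 CPM against 0.301 and 0.318 CPM. The factors that drive erythroid genes were less even: Klf1 had 25.1 and 28.4 CPM against 4.82 and 0 CPM, and Gata1 had 0.369 and 6.13 CPM against 1.58 and 3.34 CPM, with overlap. Sox6 had the opposite direction, with 1.11 and 2.04 CPM against 19.6 and 12.55 CPM, and DESeq2 called it higher (all genes 2.13%). DESeq2 called Nfe2 lower (all genes 1.24%), at 1.01 and 94.1 CPM against 0.678 and 2.28 CPM, with overlap.

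The genes whose profile over the 4 libraries was most like that of Alas2 were sought among 7852 others with a mean of at least 10 CPM, by the root mean square difference of centred log2 CPM. The closest were Zfp280b (0.173), Gm6969 (0.260), Hspa12a (0.327), Add2 (0.332) and Gimap5 (0.350). Zfp280b had 22.5 and 23.2 CPM under WT and 0.904 and 2.07 CPM under Rif1_KO, and the membrane skeleton gene Add2 had 23.9 and 32.4 against 1.13 and 3.23 CPM. Hba-a1 ranked 16, Alas1 41, Apex2 66, Fech 74 and Urod 256, while Uros ranked 7789. Only 4 libraries enter this measure, which weighs the difference between labels above all else.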

How the data were processed

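RNA-seq counts of 4 libraries, 2 per genotype label, were analysed. The authors deposited unnormalized counts of each gene as whole numbers, made with featureCounts 1.6.2 on GENCODE M17, per the file headers. Fragments needed a mapping quality of 30, reads in several genes were counted for each, and strand was ignored. Per the submitters' processing notes, HISAT2 and mm10 were used.

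The 9 genes, lists and tests were chosen with earlier results of these data known. Symbols came from Ensembl identifiers, and 95 identifiers had none. All count columns were used. Replicates differed beyond sampling noise (chi-square per degree of freedom 107 for WT, 86.6 for Rif1_KO). Genes passing filterByExpr (minimum count 10) were fitted with edgeR 4.0.16 (R 4.3.3, TMM, robust quasi-likelihood, Benjamini-Hochberg at 0.05). SE is the log2 fold change over the square root of F. CPM uses the TMM-scaled total of tested genes, and lengths are the table's merged exons. Median log2 fold changes of all tested genes were -0.111 (TMM), -0.195 (RLE) and 0.164 (upper quartile). All 9 genes are named. Other genes include those always named and some of the up to 3 with the smallest p in a list. Some, such as Gata1, Ddx4 and Kit, were named outside that rule. Alternatives were other scalings, filters, DESeq2 1.42.0, limma-voom 3.58.1, a replicate block and leaving out each library. Removal of overlapping genes' counts and coding transcript lengths (GENCODE M21) were added after the data were seen. The fit was tested on simulated counts. Some genes are not reported here.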

Additional observations from a re-analysis of the deposited data

How the results depend on the processing

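The number of genes called over the whole table was 2 and depended on the setting: 0 with upper-quartile factors or the stricter filter, 54 without a filter, 521 with DESeq2, 7 with the replicate block, and 5 to 871 with 1 library left out. Replicate numbers are shared by the labels, but no label says that they pair libraries, and deviations of same-numbered libraries had a correlation of -0.02; with the replicate block none of the 8 genes other than Alas2 was called. Without the filter edgeR called Fech lower. Of the log2 fold changes of the 9 genes, those of all but Ppox kept their sign in each setting that tested them; the stricter filter left out Slc25a38. That of Ppox (-0.94) was 1.18 with limma-voom, 1.07 with the replicate block, 0.13 less all B4galt3 counts, and -1.92 to 4.35 with 1 library left out. With 1 library left out Alas2 ran from -4.29 to -3.54, Alas1 from -3.2 to -2.29, Alad from -1.13 to -0.83, Uros from 3.76 to 5.21, Urod from -2.63 to -1.01 and Fech from -4.4 to -2.17. Slc25a38 ran from -3.44 to -0.62, and Cpox was -0.07 without WT replicate 2 and -3.09 without Rif1_KO replicate 2. The log2 ratio of Alas2 to Alas1, -1.17 between the labels, was -2.5 less all Apex2 counts. That of Alas2 to haemoglobin, 0.31, was -1.02 less all Apex2 counts and ran from -0.64 to 1.26 with 1 library left out. The cause of these shifts was not tested. Counting precision was lowest where a library held few counts, with a minimum of 5 for Ppox and of 11 for Slc25a38 and for Uros.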
